A study of Mus musculus with 6 samples.

Results

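The genes described are Gh, Prl, Cga, Fshb, Lhb, Tshb, Pou1f1, Ghrhr and Pitx1, which encode the hormones of the anterior lobe of the pituitary and 3 regulators of the cells that make them. They are the rows of the deposited count tables that carry these 9 symbols, of 23282 gene entries per table. They were chosen from earlier results of the same libraries, with one library fed a high-fat diet (HFD) already known to be rich in them. Their levels and their differences between the diets are therefore given as a description and without a test.

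To examine the brain after short-term feeding of an HFD, RNA-Seq was run on the forebrain of wild-type (WT) male C57BL/6J mice aged 8 to 10 weeks. The NCD group received a normal chow diet and the HFD group a diet with 60 kcal% fat, each for 10 days, with 3 libraries per group. Each library came from the RNA of 1 of the 2 forebrain hemispheres, taken without olfactory bulb or cerebellum, and was read from the 3′ end of each transcript. The labels number the libraries within each diet and name no animals, so a p-value measures the spread between these libraries, which may in part be technical.

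The anterior pituitary lies below the hypothalamus and is not part of the forebrain. Its somatotrophs make growth hormone (Gh), its lactotrophs make prolactin (Prl), its gonadotrophs make luteinizing hormone and follicle-stimulating hormone, its thyrotrophs make thyrotropin, and its corticotrophs make adrenocorticotropin from the precursor Pomc. Luteinizing hormone, follicle-stimulating hormone and thyrotropin share an alpha subunit, Cga, which pairs with the beta subunit Lhb, Fshb or Tshb. Pitx1 is a homeobox factor of the developing and adult gland, Pou1f1 is the POU-domain factor needed for somatotrophs, lactotrophs and thyrotrophs, and Ghrhr is the receptor through which hypothalamic growth hormone releasing hormone acts on somatotrophs.

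The genes of these hormones have compact promoters, and the 60 bases before the start site are shown to make the genes identifiable and to show what they share in sequence. The sequences are those of RefSeq on GRCm38.p6, written 5′ to 3′ on the strand of the gene, and capitals mark the letters TATAAA. The windows are chr13:27057510-27057569 on the plus strand for Prl, chr4:34893719-34893778 on the plus strand for Cga, chr2:107059652-107059711 on the minus strand for Fshb, chr7:45420886-45420945 on the plus strand for Lhb and chr3:102782715-102782774 on the minus strand for Tshb. Start sites here and below are those of RefSeq. In the GENCODE annotation Lhb begins at 45420820, so its window lies inside that gene. The windows of Fshb and Tshb overlap the first bases of their GENCODE genes.
Prl: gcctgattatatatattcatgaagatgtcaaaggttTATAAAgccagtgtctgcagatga
Cga: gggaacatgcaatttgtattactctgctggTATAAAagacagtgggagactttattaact
Fshb: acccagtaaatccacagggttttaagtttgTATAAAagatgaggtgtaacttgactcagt
Lhb: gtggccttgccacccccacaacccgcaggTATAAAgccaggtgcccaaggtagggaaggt
Tshb: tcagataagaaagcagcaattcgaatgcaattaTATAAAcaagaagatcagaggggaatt

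All 5 of these hormone promoters held TATAAA on the gene's strand, beginning at -24 in Prl, -27 in Tshb, -30 in Cga and Fshb, and -31 in Lhb, counted from the start site with the base before it as -1. The same letters occurred within 60 bases before the start in 2.87% of the 32851 promoters of the RefSeq table. Over 250 bases, the letters TATNCAT, a form of the site bound by Pou1f1, were found on either strand in 7.92% of all promoters. They occurred at -148 and -47 in the Prl promoter and at -57 in that of Pou1f1, where they overlap a TATAAA. The Prl window, chr13:27057320-27057569, is printed because it holds both kinds of letters, in capitals, with the first match read on the opposite strand.
Prl: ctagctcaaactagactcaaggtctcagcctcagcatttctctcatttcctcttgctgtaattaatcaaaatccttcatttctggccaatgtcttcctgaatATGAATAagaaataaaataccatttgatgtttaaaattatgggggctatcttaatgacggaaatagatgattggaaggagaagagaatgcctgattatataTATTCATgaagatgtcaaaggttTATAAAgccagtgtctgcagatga

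The letters AAGGTCA, bound by the gonadotroph factor SF-1, occurred at -129 in the Lhb promoter, on the opposite strand, and in 4.08% of all promoters of 250 bases on either strand. TAATCC, bound by Pitx factors, was present in none of the promoters of the 6 genes with an entry, Prl, Cga, Fshb, Lhb, Tshb and Pou1f1, and in 6.25% of all promoters. A match of this kind describes the letters of the window and not the use of a site.

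The libraries held 6842785 to 9689372 counts. The 11 forebrain markers, among them Emx1 and Slc17a7, were detected and summed to between 1469 and 1648 CPM per library. CPM are counts per 1000000 counts of the library, with the library total scaled by its TMM factor, which ranged from 0.958 to 1.034. They were not divided by gene length, since a library read from the 3′ end gives each transcript the same end to be counted. A count of 3, taken as the floor of detection in a library, corresponded to 0.316 to 0.431 CPM. The methods mention no molecular identifiers, so intervals and floors are taken to cover counting error only.

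HFD replicate 3 stood apart from the other 5 libraries in the pituitary genes. The 9 genes summed to 9201 counts in it, and to 40, 85 and 67 counts in NCD replicates 1, 2 and 3 and 23 and 20 counts in HFD replicates 1 and 2. In CPM the sum was 1263 in HFD replicate 3, 4.93 to 9.16 over the NCD replicates, and 3.30 and 2.18 for HFD replicates 1 and 2. The 9 genes took 0.121% of all counts of that library, and 0.000219% to 0.000947% of those of the others. The mean sum was 416 CPM higher in the HFD group than in the NCD group, and without HFD replicate 3 it was lower by 4.30 CPM (HFD minus NCD, -4.30). The difference between the diets in these genes therefore rested on 1 library.

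**Figure D1:**
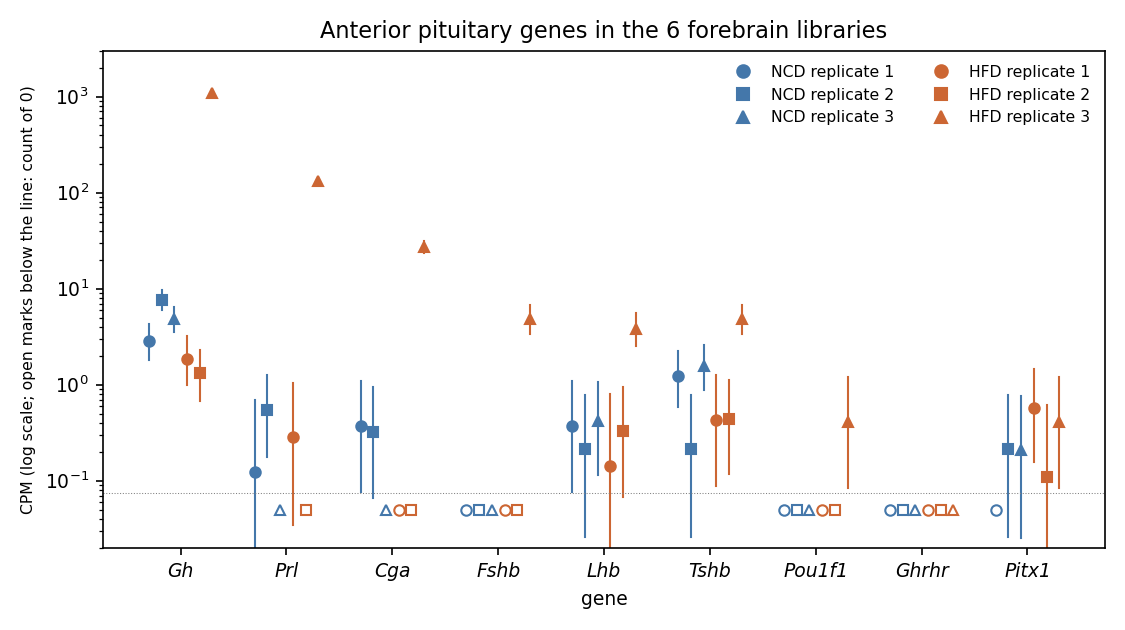
CPM of the 9 pituitary genes on a log scale in each library, with exact Poisson 95% intervals of the count as bars; open marks below the dotted line stand for a count of 0. HFD replicate 3 (orange triangles) is the highest library for Gh, Prl, Cga, Fshb, Lhb and Tshb, from 1090 CPM for Gh to 3.84 CPM for Lhb, and not for Pitx1.

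Gh, at chromosome 11, 106300271 to 106301865 on the minus strand (GRCm38), encodes growth hormone, which acts on the liver and other tissues to drive growth and the release of Igf1. It had 23, 71 and 46 counts in NCD replicates 1, 2 and 3 (2.83, 7.65 and 4.84 CPM) and 13, 12 and 7943 counts in HFD replicates 1, 2 and 3 (1.87, 1.31 and 1090 CPM). The groups overlapped, with 1 HFD library far above and 2 HFD libraries below every NCD library. HFD replicate 3 was 142.5-fold above NCD replicate 2, the next highest library (95% interval of the ratio of counts 112.9 to 182.7).

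The mean of Gh was 5.11 ± 2.42 CPM (SD, n = 3) in the NCD group and 364.6 ± 628.7 CPM (SD, n = 3) in the HFD group, so the SD of the HFD group exceeded its mean. The fitted log2 fold change of HFD over NCD was 6.13, and -1.70 without HFD replicate 3. Gh, Lhb and Tshb were the hormone genes with counts in every library. In the 5 other libraries the level of Gh ran from 1.31 to 1.87 CPM with the HFD and from 2.83 to 7.65 CPM with the NCD. This split leaves out a library after its value was seen, and it was not tested. The groups of Prl, Cga, Lhb and Tshb overlapped in the same split. The Poisson 95% intervals of NCD replicate 1 (1.80 to 4.25 CPM) and HFD replicate 1 (0.994 to 3.19 CPM) overlapped, so these neighbours in the order did not differ beyond counting error.

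Prl, at chromosome 13, 27057570 to 27065205 on the plus strand, encodes prolactin, the hormone of lactation. It had 1, 5 and 0 counts in the NCD replicates 1, 2 and 3 (0.123, 0.539 and 0 CPM) and 2, 0 and 956 counts in the HFD replicates 1, 2 and 3 (0.287, 0 and 131.2 CPM). Outside HFD replicate 3 the gene was at 8 counts in all, and the diets overlapped. The ratio of HFD replicate 3 to NCD replicate 2, the next highest, was 243.6, with a 95% interval of 104 to 752 that is wide because it rests on 5 counts. The mean was 0.221 ± 0.282 CPM (SD, n = 3) with the NCD and 43.8 ± 75.7 CPM (SD, n = 3) with the HFD, and the fitted log2 fold change of 7.51 became -0.71 without HFD replicate 3.

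Cga, at chromosome 4, 34893779 to 34907370 on the plus strand, is the alpha subunit common to the pituitary glycoprotein hormones. It had 3, 3 and 0 counts in NCD replicates 1, 2 and 3 (0.370, 0.323 and 0 CPM) and 0, 0 and 198 counts in HFD replicates 1, 2 and 3 (0, 0 and 27.2 CPM). Its 6 counts outside HFD replicate 3 all came from 2 NCD libraries, each at the floor of 3 counts. The ratio to NCD replicate 1 was 73.6 (95% interval 24.8 to 359.8). In the annotation 305 of its 954 exon bases, up to its 3′ end, are shared with Platr9 on the other strand, and Platr9 had 1 count in all, in HFD replicate 2.

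Fshb, at chromosome 2, 107056140 to 107059656 on the minus strand, is the beta subunit of follicle-stimulating hormone. It had 35 counts in HFD replicate 3 (4.81 CPM, 95% interval 3.35 to 6.68) and 0 counts in each of the other 5 libraries. The level in HFD replicate 3 was 11.15-fold above the highest floor of 3 counts in the others, 0.431 CPM. This ratio is not a lower limit, since it leaves out the counting error of the 35 counts.

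Lhb, at chromosome 7, 45420820 to 45421897 on the plus strand, is the beta subunit of luteinizing hormone. It had 3, 2 and 4 counts in NCD replicates 1, 2 and 3 (0.370, 0.216 and 0.421 CPM) and 1, 3 and 28 counts in HFD replicates 1, 2 and 3 (0.144, 0.327 and 3.84 CPM). Every library held a count, and HFD replicate 3 was 9.13-fold above NCD replicate 3 (95% interval 3.19 to 35.8). The last 138 exon bases of Lhb overlap the 3′ end of Ruvbl2, a helicase gene on the other strand. Ruvbl2 had 36, 28 and 33 counts in NCD replicates 1, 2 and 3 and 23, 33 and 21 counts in HFD replicates 1, 2 and 3. The use of strand in the counting is not given in the sources used here, so counts of Lhb and Ruvbl2 cannot be told apart where they overlap, and Ruvbl2 did not share the high value of HFD replicate 3.

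Tshb, at chromosome 3, 102775465 to 102782718 on the minus strand, is the beta subunit of thyrotropin. It had 10, 2 and 15 counts in NCD replicates 1, 2 and 3 (1.23, 0.216 and 1.58 CPM) and 3, 4 and 35 counts in HFD replicates 1, 2 and 3 (0.431, 0.436 and 4.81 CPM). It was the hormone gene with the smallest excess in HFD replicate 3, 3.04-fold above NCD replicate 3 with a 95% interval of 1.62 to 5.995. Of its counts, 34 lay in the other 5 libraries, nearly as many as the 35 of HFD replicate 3. Its mean was 1.01 ± 0.709 CPM (SD, n = 3) with the NCD and 1.89 ± 2.52 CPM (SD, n = 3) with the HFD, the fitted log2 fold change was 0.87, and without HFD replicate 3 it was -1.18, with overlapping groups.

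The 3 regulators were near or at 0. Pou1f1, at chromosome 16, 65520511 to 65535005 on the plus strand, had 3 counts in HFD replicate 3 (0.412 CPM) and 0 counts in the other libraries, which is at the floor and gives no fold. Ghrhr, at chromosome 6, 55376295 to 55388530 on the plus strand, had 0 counts in all 6 libraries, with upper 95% limits between 0.388 and 0.530 CPM. Pitx1, at chromosome 13, 55825051 to 55836192 on the minus strand, had 0, 2 and 2 counts in NCD replicates 1, 2 and 3 (0, 0.216 and 0.211 CPM) and 4, 1 and 3 counts in HFD replicates 1, 2 and 3 (0.575, 0.109 and 0.412 CPM). HFD replicate 3 was not its highest library, at 0.717 of the level in HFD replicate 1, and the 95% intervals of the 6 libraries overlapped. A count of 0 does not show that a gene is unused in the tissue in these tables, since Drd2, the dopamine receptor that the striatum uses heavily, had 1 count in the 6 libraries.

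The makeup of the pituitary counts was set side by side for HFD replicate 3 and for the other libraries pooled. Of the 9201 counts in HFD replicate 3, Gh made up 86.3% (exact Clopper-Pearson 95% interval 85.6 to 87.0), Prl 10.4% (9.77 to 11.0), Cga 2.15% (1.87 to 2.47), Fshb and Tshb 0.380% each (0.265 to 0.529) and Lhb 0.304% (0.202 to 0.440). Of the 235 counts of the other 5 libraries together, Gh made up 70.2% (63.9 to 76.0), Tshb 14.5% (10.2 to 19.6), Lhb 5.53% (2.98 to 9.27), Pitx1 3.83% (1.77 to 7.15), Prl 3.40% (1.48 to 6.60) and Cga 2.55% (0.943 to 5.47). The intervals of Gh, Prl, Lhb, Tshb and Pitx1 did not overlap between these pools, and those of Cga did.

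The pool joins libraries of unlike makeup, and its intervals do not cover the spread between them. Tshb gave 10 of 40, 2 of 85 and 15 of 67 counts in NCD replicates 1, 2 and 3, and 3 of 23 and 4 of 20 counts in HFD replicates 1 and 2. NCD replicate 2, which gave 85 of the 235 counts, was led by Gh, Prl and Cga with 71, 5 and 3 counts, and these genes also led in HFD replicate 3. Lhb, Tshb and Pitx1 had 2 counts each in NCD replicate 2, so the order under Gh is not resolved there. For Fshb, 0 of 235 counts has an upper Clopper-Pearson 95% limit of 1.56%, above the 0.380% in HFD replicate 3, so its share was not distinguishable at this depth. Prl stood at 12.0 counts per 100 Gh counts in HFD replicate 3, at 4.35 and 7.04 in NCD replicates 1 and 2, at 15.4 in HFD replicate 1 on 2 Prl counts, and at 0 in the remaining 2 libraries. The rule that chose the genes used these libraries, and the difference in makeup was not tested.

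**Figure D2:**
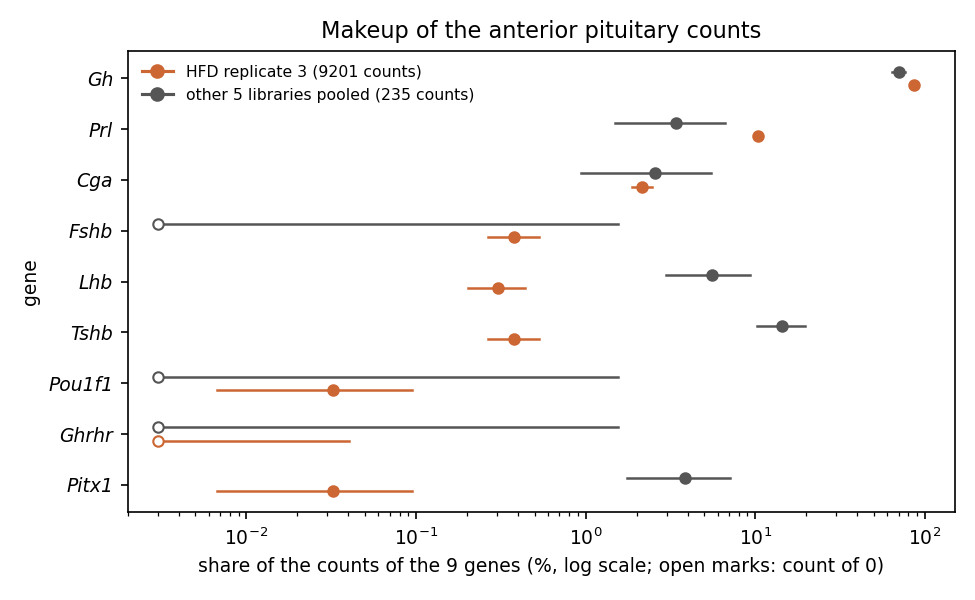
Share of each gene among the counts of the 9 pituitary genes (percent, log scale) in HFD replicate 3 (9201 counts, orange) and in the other 5 libraries pooled (235 counts, grey), with exact Clopper-Pearson 95% intervals; open marks stand for a count of 0. Tshb makes up 0.380% in HFD replicate 3 and 14.5% in the others, while Cga is at 2.15% and 2.55%.

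The concentration of the pituitary genes in HFD replicate 3 restates the choice of these genes and is given as a description. Of the sum of a gene's 6 CPM values, HFD replicate 3 held 100% for Fshb, 99.3% for Prl, 98.3% for Gh, 97.5% for Cga, 72.2% for Lhb, 55.2% for Tshb and 27.1% for Pitx1. Prl, Cga, Fshb and Lhb reached 20 counts in all only through this library, with 8, 6, 0 and 13 counts in the other 5 libraries together. Of the 15290 other genes with at least 20 counts, 0 passed 80% in HFD replicate 3, and 1 passed it in another library, Apoa5, a liver apolipoprotein gene, with 84.9% in NCD replicate 2.

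At a lower limit of 50%, 13 other genes lay mostly in HFD replicate 3 and 4 to 30 in each of the remaining libraries. The nearest in HFD replicate 3 was Mrgbp, which encodes a chromatin-associated protein, with 76.4% and counts of 0, 5 and 0 with the NCD and 2, 1 and 22 with the HFD. It was followed by Fhitos with 67.5% and Sall4 with 65.8%. These 3 genes were at 2.06 to 3.02 CPM in HFD replicate 3, close to the level of Lhb and far under that of Gh.

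**Figure D3:**
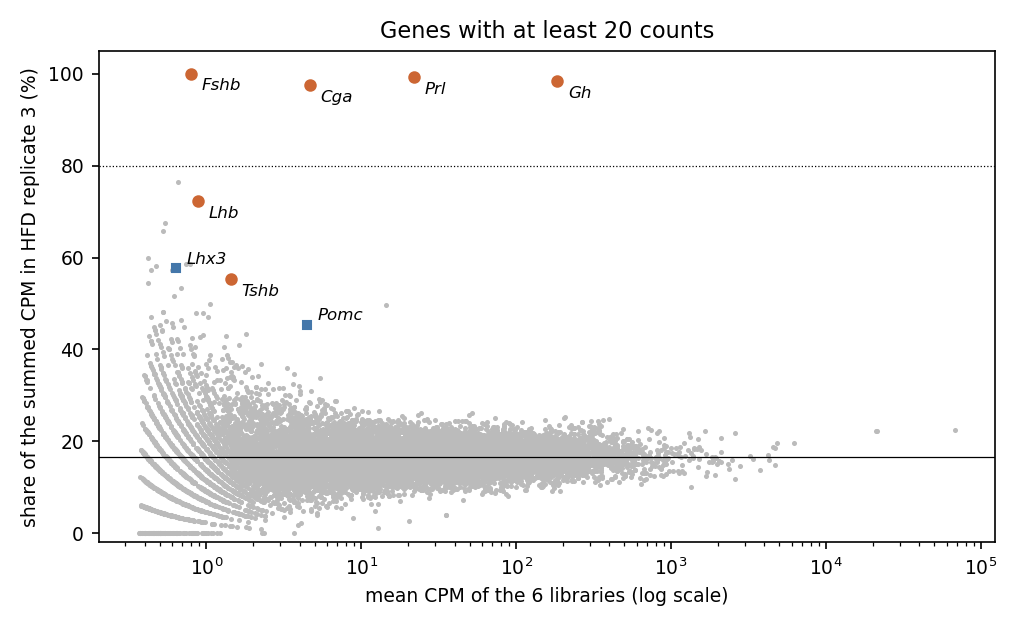
Share of the sum of a gene's 6 CPM values that lies in HFD replicate 3 (percent) against its mean CPM on a log scale, for all genes with at least 20 counts; orange points are the pituitary genes, blue squares Lhx3 and Pomc, grey points all others, the dotted line is at 80% and the solid line at an even share. Gh, Prl, Cga and Fshb lie between 97.5% and 100%, and the highest grey point is Mrgbp at 76.4%.

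The genes with the most similar pattern over the 6 libraries were sought by Pearson's r between a gene's log2(CPM + 1) and the mean log2(CPM + 1) of the 9 genes. The 10 highest values, from 0.991 to 0.998, belonged to Rps3a1, Tmem241, Mtdh, Ndufb9, Med31, 1700021F05Rik, Gtf2h3, Psmb5, Atp5o and Ube2b. These correlations rest on a single high library, and the sizes of the excess were unlike. Rps3a1, a ribosomal protein gene, had 391.4 CPM in HFD replicate 3 against 268.6 to 278.2 CPM in the others, and Tmem241 had 7.002 CPM against 3.60 to 3.94 CPM. HFD replicate 3 held 19.1% to 27.0% of the CPM of the 10 genes, against 97.5% or more for Gh, Prl, Cga and Fshb.

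The genes were then placed beside the test across all genes. The count filter kept 13771 genes, among them Gh and Tshb, and the other 7 pituitary genes were under it. With edgeR's quasi-likelihood test and Benjamini-Hochberg adjustment, 0 of the 13771 genes (0%) had an adjusted p under 0.05 between the diets, and 508 (3.69%) had an unadjusted p under 0.05. DESeq2 called 2 genes. Without the filter 23 of 18936 genes with a count (0.121%) were called, and 4 of them were Gh, Prl, Cga and Fshb. These were chosen on this contrast, and nothing is read from their calls.

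Genes around the pituitary axis that the choice had not used were examined next, in 8 lists of 75 genes, of which 51 were tested. These covered the hypothalamic factors, their receptors, pituitary transcription factors, corticotroph genes, and secretory granule and other anterior lobe genes. They also covered receptors of the pituitary hormones and the signalling of growth hormone, prolactin and thyroid hormone. Of the 51 genes, 24 were higher and 27 lower with the HFD, with a median log2 fold change of -0.02, against 6773 higher and 6998 lower with a median of -0.00335 over all genes tested. An adjusted p under 0.05 was reached by 0 of the 51 with edgeR and by 0 with DESeq2, and an unadjusted p under 0.05 by 4 of them (7.84%, beside 3.69% of all genes), 1 higher and 3 lower.

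The hypothalamic factors include somatostatin (Sst), which restrains growth hormone, and dopamine, made through tyrosine hydroxylase (Th), which restrains prolactin. The libraries held bulk forebrain, so counts of these genes cannot be assigned to the hypothalamic neurons that act on the pituitary. Of 9 genes of this list tested, 4 were higher and 5 lower, with a median log2 fold change of -0.00346. Th had 100, 189 and 145 counts in NCD replicates 1, 2 and 3 and 60, 128 and 26 counts in HFD replicates 1, 2 and 3, and its lowest library was HFD replicate 3. Its log2 fold change was -0.85 (SE 0.32, adjusted p = 0.979 with edgeR's quasi-likelihood test and Benjamini-Hochberg adjustment), and -0.49 without HFD replicate 3. Sst, at 257.3 ± 16.1 CPM with the NCD and 266.8 ± 12.0 CPM with the HFD (SD, n = 3 each), had a log2 fold change of 0.05, and Crh, the releasing factor of adrenocorticotropin, one of -0.00346. Oxt, the oxytocin gene, had 104, 309 and 239 counts with the NCD and 82, 330 and 24 with the HFD, with overlapping groups. Ghrh, the releasing factor of growth hormone, had 0, 6 and 0 counts with the NCD and 0, 5 and 2 with the HFD, under the filter.

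Of the receptors through which these factors act, 3 of 6 tested were higher and 3 lower. Adcyap1r1, the receptor of the peptide PACAP, had 1214, 1511 and 1749 counts in NCD replicates 1, 2 and 3 and 995, 1383 and 837 counts in HFD replicates 1, 2 and 3. Its log2 fold change was -0.28 (SE 0.12, adjusted p = 0.979 with edgeR's quasi-likelihood test), and -0.17 without HFD replicate 3. The somatostatin receptors Sstr3 and Sstr2 were at 0.18 and 0.05, and Gnrhr, the receptor that marks gonadotrophs, had 0 counts in all libraries.

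The other pituitary transcription factors had 7 of 14 genes tested, 5 higher and 2 lower, with a median log2 fold change of 0.05. The most abundant were Zbtb20 at 0.05, Neurod1 at 0.22 and Otx2 at 0.02, all of them factors that are also used in the brain. Lhx3 and Six6, a LIM-homeobox and a homeobox factor of the pituitary, were under the filter and were chosen after their values were seen. Lhx3 had 4, 3 and 0 counts with the NCD and 1, 6 and 16 with the HFD, and Six6 had 0, 1 and 0 with the NCD and 4, 1 and 12 with the HFD. Both were highest in HFD replicate 3. Of the 9 genes of this list with at least 20 counts, 2 were highest in that library (22.2%, beside 25.5% of all other genes) and 2 were lowest, Zbtb20 with 37.5 CPM and Isl1 with 4.39 CPM. Lhx4, a factor of the developing gland, had 0 counts in all libraries.

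Pomc, the precursor made by corticotrophs and by the melanotrophs of the intermediate lobe, had 25, 43 and 11 counts in NCD replicates 1, 2 and 3 and 14, 35 and 89 counts in HFD replicates 1, 2 and 3. HFD replicate 3 was the highest library, and the groups overlapped. The log2 fold change was 1.02 (SE 0.54, adjusted p = 0.979 with edgeR's quasi-likelihood test), and 0.01 without HFD replicate 3. Pcsk1 and Pcsk2, the convertases that cut the Pomc precursor and that neurons also use, were at 0.04 and 0.05. In the list of secretory granule and other anterior lobe genes, 9 were tested, with 1 higher and 8 lower. The abundant Cpe, Chgb and Scg2 were at -0.05, -0.04 and -0.10. The summed level of this list was lowest in HFD replicate 3, 3250 CPM against 3462 to 3649 CPM in the others. Cpe led this sum, at 1791.5 CPM in HFD replicate 3 and 1828 to 1945 CPM with the NCD. The sum thus mostly reads genes that were also abundant in libraries with few pituitary counts. Pappa2, of the same list but under the filter, had 10, 9 and 7 counts with the NCD and 3, 10 and 15 with the HFD, highest in HFD replicate 3.

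Downstream of the hormones, Ghr and Prlr, the receptors of growth hormone and prolactin, had log2 fold changes of 0.19 and 0.12, and Fshr and Lhcgr, those of the gonadotropins, had 0 counts. Cish, a feedback inhibitor induced by Stat5, had 76, 101 and 92 counts in NCD replicates 1, 2 and 3 and 49, 73 and 48 counts in HFD replicates 1, 2 and 3. In CPM the groups were 9.98 ± 0.801 with the NCD and 7.20 ± 0.698 with the HFD (SD, n = 3 each), a log2 fold change of -0.47 (SE 0.21, adjusted p = 0.979 with edgeR's quasi-likelihood test). It was -0.41 without HFD replicate 3. Socs2, another feedback gene of growth hormone, was at -0.07, and Jak2 and Stat5b, the kinase and the factor of this pathway, were at -0.16 and -0.13. Of the 8 genes of the thyroid hormone response, Thrb, a thyroid hormone receptor, had 551, 574 and 499 counts with the NCD and 486, 693 and 597 with the HFD, with a log2 fold change of 0.32 (SE 0.12, adjusted p = 0.979 with edgeR's quasi-likelihood test). Klf9, Dio2 and Thra were at -0.05, -0.09 and -0.02.

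**Figure D4:**
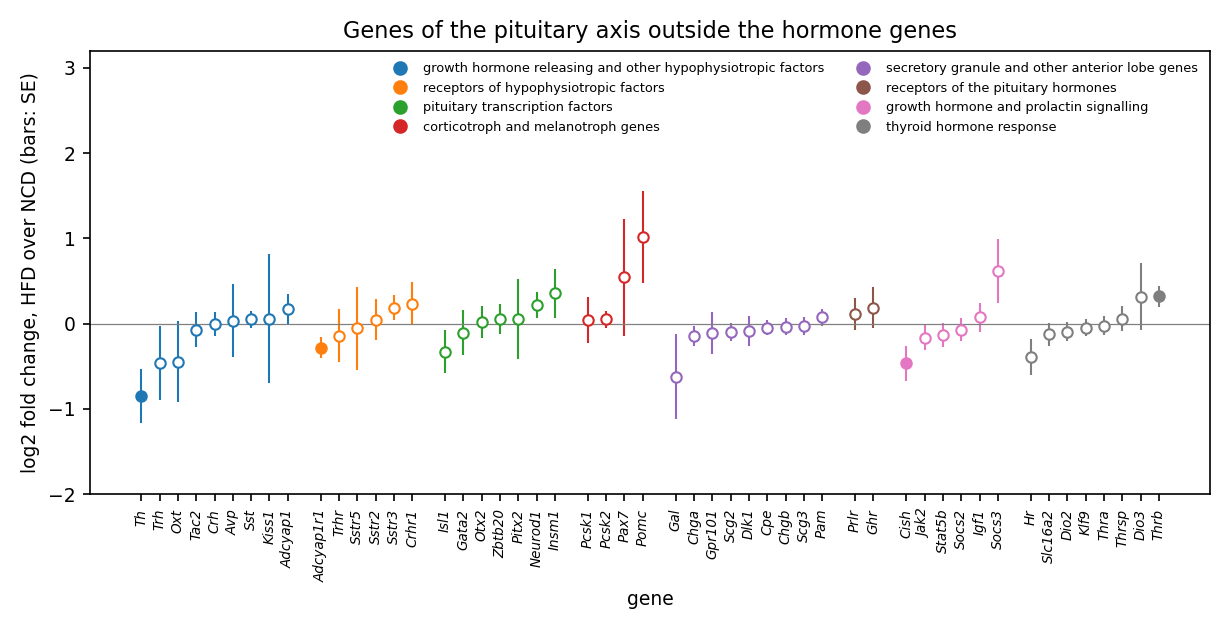
Log2 fold change of HFD over NCD for the 51 tested genes of the 8 pituitary axis lists, coloured by list, with the SE derived from the F statistic as bars. Filled marks passed an unadjusted p of 0.05 with edgeR and open marks did not. The 4 filled genes are Th (-0.85), Adcyap1r1 (-0.28), Cish (-0.47) and Thrb (0.32), and Pomc, at 1.02, is the highest of all with an SE of 0.54.

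Markers of neighbouring regions also set HFD replicate 3 apart. The 11 hypothalamic markers summed to 15.4 CPM in it, against 64.3 to 105.3 CPM in the other libraries, and 4 of the 7 with at least 20 counts had their lowest CPM there, beside 26.3% of all other genes. Pmch, the gene of melanin-concentrating hormone, had 60 counts in HFD replicate 3 and 264 to 416 in the others, and Hcrt, that of orexin, had 7 and 92 to 169. The regional transcription factors of the list were near the floor and gave no common direction. Sim1, on 5 counts in HFD replicate 3, was at 0.686 CPM against 0.218 to 0.539 CPM. Nkx2-1, on 6 counts there, was at 0.824 CPM against 0.539 to 1.42 CPM. Fezf1 had 1 count there and 1 to 10 in the others. Hmx2 and Hmx3 had at most 1 count in any library, and Otp had 0 counts in all libraries. The 5 markers of the posterior lobe and tanycytes summed to 39.8 CPM in HFD replicate 3 against 55.7 to 61.8 CPM. That low sum came from Col25a1, at 29.5 CPM against 45.1 to 51.4 CPM, while Scn7a and Fgf10, at 4.12 and 6.18 CPM, lay within the range of the others. The 5 midbrain markers summed to 7.002 CPM against 13.3 to 22.7 CPM. En1 and Slc6a3 were lowest there, at 1.78 and 3.29 CPM against 3.33 to 8.32 and 6.32 to 8.33 CPM. Foxa2 had 0 counts there and 4 to 17 in the others. En2, at 1.92 CPM, lay within the 0.985 to 5.90 CPM of the others, and Foxa1 had at most 4 counts in any library.

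In the other direction, the 3 markers of the intermediate lobe summed to 13.0 CPM in HFD replicate 3 against 3.33 to 5.78 CPM. Most of this sum came from the 89 counts of Pomc, which corticotrophs also make, with 5 counts of Pax7 and 1 count of Tbx19. Pax7 was not high there, at 0.686 CPM against 0.246 to 2.21 CPM in the others. The summed level of the 5 erythroid markers, led by haemoglobin genes, was 823.3 CPM there against 420.5 to 697.8 CPM, and 3 of the 5 were highest in that library, while Hba-a2 and Alas2 were highest in HFD replicate 1. These sums also differed by diet, at 542.6 to 823.3 CPM in the HFD libraries and 420.5 to 518.6 CPM in the NCD libraries. With edgeR, 4 of the 5 genes were higher at an unadjusted p under 0.05, beside 3.69% of all genes tested, and 0 at an adjusted p under 0.05. Without the count filter, where 0.121% of genes were called, Hba-a1, Hbb-bs and Hbb-bt were among the calls, and Hba-a2 and Alas2 were not. The choroid plexus list, at 1163 CPM, lay within the 1027 to 1289 CPM of the others, the 4 meningeal markers were at 81.7 CPM against 91.6 to 103.6 CPM, and the 6 liver markers at 5.77 CPM against 7.76 to 51.7 CPM. All 5 liver markers tested were lower with the HFD at an unadjusted p under 0.05 with edgeR, beside 3.69% of all genes tested. At an adjusted p under 0.05 there were 0. The calls without the count filter included Alb and Ahsg, and not Apoa1, Apoa2, Fgb or Serpina1a. The liver sums overlapped between the diets, at 10.4 to 51.7 CPM in the NCD libraries and 5.77 to 11.9 CPM in the HFD libraries. Asmt, a pineal marker, had 0 counts throughout, and the 3 pineal markers were at 0.824 CPM in HFD replicate 3 and at most 0.647 CPM elsewhere. The share of the ribosomal RNA entry Rn45s was 8.75% in HFD replicate 3 and 5.55% to 7.35% in the others. The part of any of these in the high level of the pituitary genes was not tested, and in bulk tissue more cells of a type and more RNA per cell cannot be told apart.

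**Figure D5:**
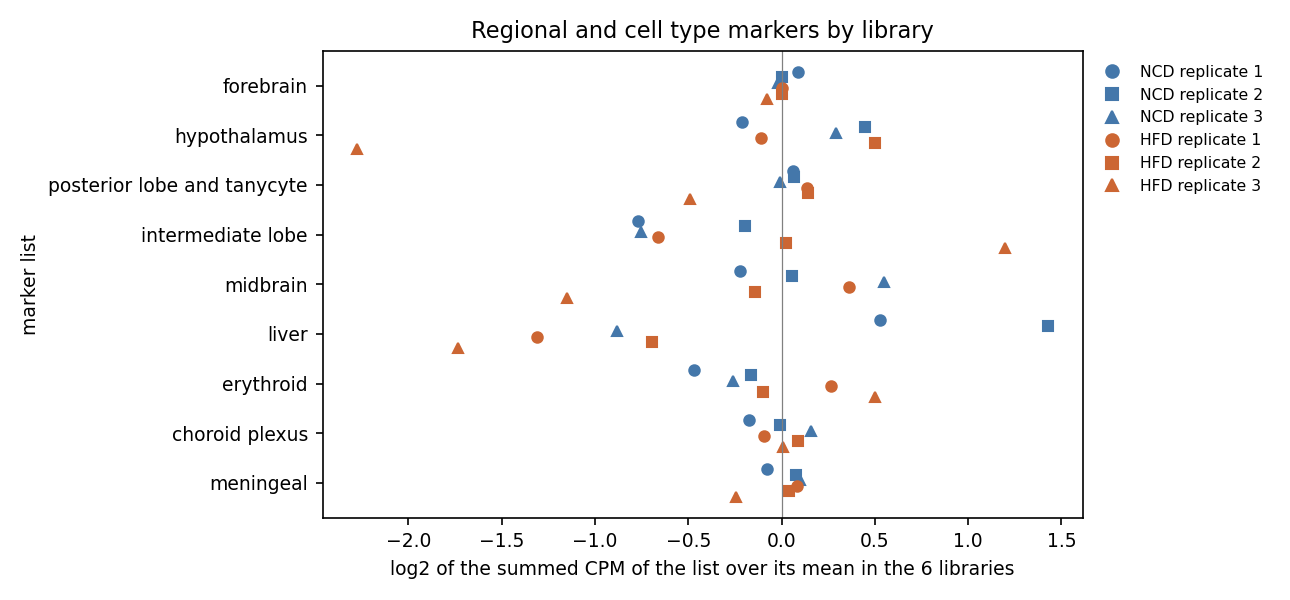
Log2 of the summed CPM of each marker list over its mean in the 6 libraries, by library; blue marks are NCD and orange marks HFD libraries. HFD replicate 3 (orange triangles) is lowest for the hypothalamic list, 15.4 CPM against 64.3 to 105.3 CPM. It is highest for the intermediate lobe list, 13.0 CPM against 3.33 to 5.78 CPM. Most of that sum is Pomc, while Pax7 is at 0.686 CPM there against 0.246 to 2.21 CPM.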

How the data were processed

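RNA-Seq counts of 6 forebrain libraries, 3 NCD and 3 HFD, were used. Per the methods, the authors prepared QuantSeq 3′ libraries from 500 ng of total RNA, sequenced single ends of 75 bp, trimmed the reads, aligned them with Bowtie2 to mm10 and counted alignments, both unique and multiple, by Bedtools. The deposited values are raw whole-number counts per gene, to which the quantile normalization of the authors' methods was not applied. Annotation and strand use are not given in the sources used here. Reads that align to several genes could add to a gene's count. The 31-base stretches in the last 300 bases of the transcripts were compared with other transcripts in the sense direction only. Of these, 0 were shared with another gene for Gh, Cga, Fshb, Lhb, Tshb and Pitx1, 1 for Prl and for Ghrhr, and 66 of 1063 for Pou1f1. Sharing with the opposite strand was not searched, and the 3′ ends of Cga and Lhb do overlap Platr9 and Ruvbl2 there. Each table had 23282 entries, 44 of them repeating a symbol, with 4346 at 0 in every library.

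The analysis used edgeR 4.0.16 in R 4.3.3. filterByExpr (minimum count 10, minimum total 15) kept 13771 genes and left out 5165 with a count, libraries were scaled with TMM, and glmQLFit and glmQLFTest gave log2 fold changes, with Benjamini-Hochberg adjustment and an adjusted p of 0.05 as the threshold. The test gives no SE, so the SE of a log2 fold change was derived as its absolute value over the square root of the F statistic. The biological coefficient of variation common to all genes was 0.126. Fold changes of the 9 pituitary genes came from the fit over all genes with a count. Intervals of counts are exact Poisson intervals and those of shares exact Clopper-Pearson intervals (scipy 1.17.1). Gene positions are those of GENCODE on GRCm38 and promoter sequences those of RefSeq on GRCm38.p6, in which 6 of the 9 genes matched. The procedure was tested on simulated counts, drawn with the common dispersion for genes past the filter. They held no outlying library, so the test does not cover a case like HFD replicate 3. Alternatives were DESeq2 1.42.0, upper-quartile, library-size and quantile scaling (the last with limma 3.58.1), other filters, a replicate block and leaving out each library.

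The 9 genes, the lists and the tests were chosen with earlier results of these data known. Named genes are the 9 pituitary genes, in each list the genes with an unadjusted p under 0.05 and up to 3 tested genes of highest mean CPM, the 10 genes most alike in pattern, and genes with at least 80% of their CPM in 1 library. Marker lists are given mainly as sums. Fhitos, Sall4, Mrgbp, Ghrh, Drd2, Pmch, Hcrt, Lhx3, Six6, Isl1, Pappa2, single marker genes and genes at 0 were chosen after their values were seen. Replicate numbers are shared between the diets, and the deviations of same-numbered libraries from their group means correlated at -0.0389, 0.0313 and -0.0746, so the numbers were not taken as pairs.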

Additional observations from a re-analysis of the deposited data

How the results depend on the processing

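The number of genes called between the diets was 0 with edgeR, 2 with DESeq2 and 23 without the count filter and 0 to 3 when 1 library was left out, with 3 without NCD replicate 3. Of the pituitary axis genes, 0 were called under every alternative run. Genes with an unadjusted p under 0.05 numbered 508, and 902 without the filter and 774 without HFD replicate 1, and the axis genes among them 4, with 7 without the filter and 2 with DESeq2 or without NCD replicate 2. With a replicate block these counts were 370 and 3, 0 genes and 0 axis genes were called, and the log2 fold change of Gh was 3.14 in place of 6.13. The summed CPM of the 9 genes differed by 416 (HFD minus NCD), 415.5 with upper-quartile scaling, 398.1 with library size alone and 12.8 without Gh and Prl, and by -4.30 to 626 when 1 library was left out. With 1 library left out, the log2 fold changes ran from -1.70 to 6.72 for Gh, -0.71 to 9.23 for Prl, -4.05 to 5.84 for Cga, -0.43 to 2.55 for Lhb and -1.18 to 1.38 for Tshb, negative in each case without HFD replicate 3 and positive without any other library. Fshb and Pou1f1 could not be fitted without HFD replicate 3, since no count was left. Of the axis genes with an unadjusted p under 0.05 with edgeR, namely Th, Adcyap1r1, Cish and Thrb, only Thrb kept it without HFD replicate 3, and Thrb lost it without NCD replicate 3. Th lost it without NCD replicate 2 and with DESeq2, Adcyap1r1 without NCD replicate 2 or 3 and with the replicate block, and Cish without NCD replicate 2 or HFD replicate 1 and with DESeq2. Depth limits Pou1f1, Ghrhr and Pitx1, which lie at or near the floor of 3 counts, and the groups of 3 libraries were too small for a search for outlying libraries by their spread.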
